A study of Homo sapiens with 8 samples.

Results

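Integrins, collagens, laminins and the proteins that bind, modify or regulate the extracellular matrix were examined for changes in the poly(A) site at which their mRNAs end. The genes were chosen by a symbol pattern, from 2 tables of poly(A) site pairs, and antisense genes were left out. This choice was made with earlier results of these data known. The choice held 55 genes of 7504 listed in either table, and 43 of the 5838 listed in both. In the table for MDA-LM2 against its parental line, 51 of 6541 genes were members, with 202 of 27016 pairs of sites. In the table for sgHNRNPC against sgControl cells, 47 of 6801 genes were members, with 157 of 31148 pairs. The symbol pattern also took in ITGB1BP1 and ITGB3BP, whose products are named for binding an integrin beta chain and are not integrins, and the pseudogene SERPINB9P1.

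All 8 samples were cultured cells of the human triple-negative breast cancer line MDA-MB-231 and were assayed by mRNA 3′-end sequencing, with 2 replicates in each of 4 groups. The first comparison set MDA-LM2, a line derived from MDA-MB-231 and highly metastatic to the lungs, against the poorly metastatic parental cells (MDA-Par). The second set MDA-MB-231 cells with HNRNPC knocked down (sgHNRNPC) against cells with a non-targeting control guide (sgControl). MDA-LM2 is 1 derived line. The labels do not say how the replicates were made, and the study's methods describe the replicates of its sequencing experiments as biological. The comparisons shared no samples. The tables give no value of a single sample and no expression level, so depth is unknown and the knockdown of HNRNPC was not checked here.

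Integrins are heterodimers of an alpha and a beta chain that tie the cytoskeleton to the matrix outside the cell, and collagens and laminins are the main fibrous and basement membrane proteins that they hold. A gene with several poly(A) sites makes mRNAs whose 3′ untranslated regions (UTRs) differ in length, and cleavage usually follows an AAUAAA or AUUAAA signal by a short distance. HNRNPC is a nuclear protein that binds runs of U in RNA and takes part in the choice of splice and poly(A) sites.

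Each value below is a logAPAR, the log change of the ratio of reads at the proximal site to reads at the distal site, as in the authors' deposited tables. A negative logAPAR is a shift to the distal site and a positive one a shift to the proximal site. The base of the logarithm was not stated. A standard error (SE) was implied from each logAPAR and its deposited p-value, and 95% intervals were built from it. The SEs have the form of counting error, as described below. The intervals and the tests of differences may therefore leave out the spread between replicates. Raw p-values of a logAPAR are the deposited ones, from APAlog's model. No exact test over samples could be run in their place, and 2 samples against 2 cannot reach a two-sided exact p under 0.333. Positions of sites that are not transcript ends are printed as deposited. The labels name hg38 (GRCh38), but most of these positions did not lie where GRCh38 places their genes, and the tables themselves name no build, so whether they lie in an exon, intron or UTR was not determined. A gene was called when any of its pairs had a raw p under 0.01. The outermost pair, between the most proximal and the most distal listed site, stood for a gene where 1 value per gene was needed.

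The last 30 bases of the transcript ends on which the results turn are given first, since each is the distal site of a pair described below. Capitals mark the poly(A) signal nearest the end, and the sequences are from GENCODE release 44 on GRCh38. The CCN1, COL27A1, LAMC1 and ITGB1 ends close a 3′ UTR of a protein-coding transcript. The FN1 end belongs to a retained-intron transcript.
CCN1, ENST00000451137.7, chr1:85583921-85583950, plus strand: atgaagcacAATAAAgattctgaagctaaa
ITGB1, ENST00000302278.8, chr10:32900318-32900347, minus strand: tttatagATTAAAgaagttgaggaaaagca
LAMC1, ENST00000258341.5, chr1:183145563-183145592, plus strand: tAATAAAatctgaatatttgtaacccttta
COL27A1, ENST00000356083.8, chr9:114312482-114312511, plus strand: aAATAAAtatttaaaactgaggcaatggaa
FN1, ENST00000492816.6, chr2:215360862-215360891, minus strand: ctgttttAATAAAagatttacattccacaa
The proximal COL27A1 end (ENST00000494090.6, chr9, position 114311548), which closes a transcript marked for nonsense-mediated decay, held neither AATAAA nor ATTAAA in its last 40 bases.

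The members' sites in the MDA-LM2 comparison were 76 annotated transcript ends and 75 genomic positions, and in the sgHNRNPC comparison 69 and 66. AATAAA or ATTAAA, read on the transcript's strand, stood in the last 40 bases of 39 of the 70 member ends that could be placed in the MDA-LM2 table (55.7%), against 47.4% of 9793 ends of all genes. In the sgHNRNPC table the share was 39 of 64 (60.9%), against 50.6% of 9872. A run of 5 T in the last 100 bases was held by 25 of those 70 member ends (35.7%, against 26.8% of all) and by 25 of those 64 (39.1%, against 28.7%). Of the 70 ends, 46 closed protein-coding transcripts, 10 retained-intron transcripts and 6 transcripts marked for nonsense-mediated decay. Where both sites of a member pair were genomic positions, the median distance was 1311 nt (407 to 56488) for MDA-LM2 and 1095 nt (407 to 11186) for sgHNRNPC. Where both were placed transcript ends, it was 8811 nt (431 to 76146) for MDA-LM2 and 3434.5 nt (665 to 52100) for sgHNRNPC. Some proximal ends thus lay far upstream in the gene, so a logAPAR is not always a change of 3′ UTR length.

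In MDA-LM2 cells 2 of 51 members (3.92%) were called, 1 to each direction, with COL1A1 towards its proximal site, against 2.72% of all genes. At raw p under 0.05, 4 of 51 (7.84%) passed, with pairs of ITGB1 and COL27A1, against 11.0% of all genes. After HNRNPC knockdown 1 of 47 members (2.13%) was called, CCN1 towards its proximal site, against 1.62% of all genes. At raw p under 0.05, 2 of 47 (4.26%) passed, with LAMC1 shifted to distal, against 4.51% of all genes. No member passed an adjusted p under 0.05 in either table (APAlog's p-values, adjusted by Benjamini-Hochberg over all pairs), where 0.122% and 0.338% of all genes passed. The members' shares thus lay near those of all genes. The genes named at raw p under 0.05 only were chosen after their values were seen.

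By outermost pair, 24 of 51 members (47.1%) had a logAPAR below 0 in MDA-LM2 cells, and 52.3% of all genes did. The median was 0.02 over the members and −0.03 over all genes. In sgHNRNPC cells 26 of 47 members (55.3%) lay below 0, and 57.9% of all genes did, with medians of −0.03 and −0.11. The sign of neither member median was stable. For MDA-LM2 the pair with the smallest SE of each gene gave −0.13, and for sgHNRNPC the median was 0.11 among the 10 members with an SE under 0.5, 0.01 without the genes of 1 family and 0.08 when centred on the median of all genes. The median SE of the members' outermost pairs was 0.660 for MDA-LM2 and 0.969 for sgHNRNPC, at which a logAPAR of 1.70 or 2.50 reaches a raw p of 0.01. For the pair with the smallest SE of each member, the corresponding medians were 1.22 and 1.94.

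**Figure D1:**
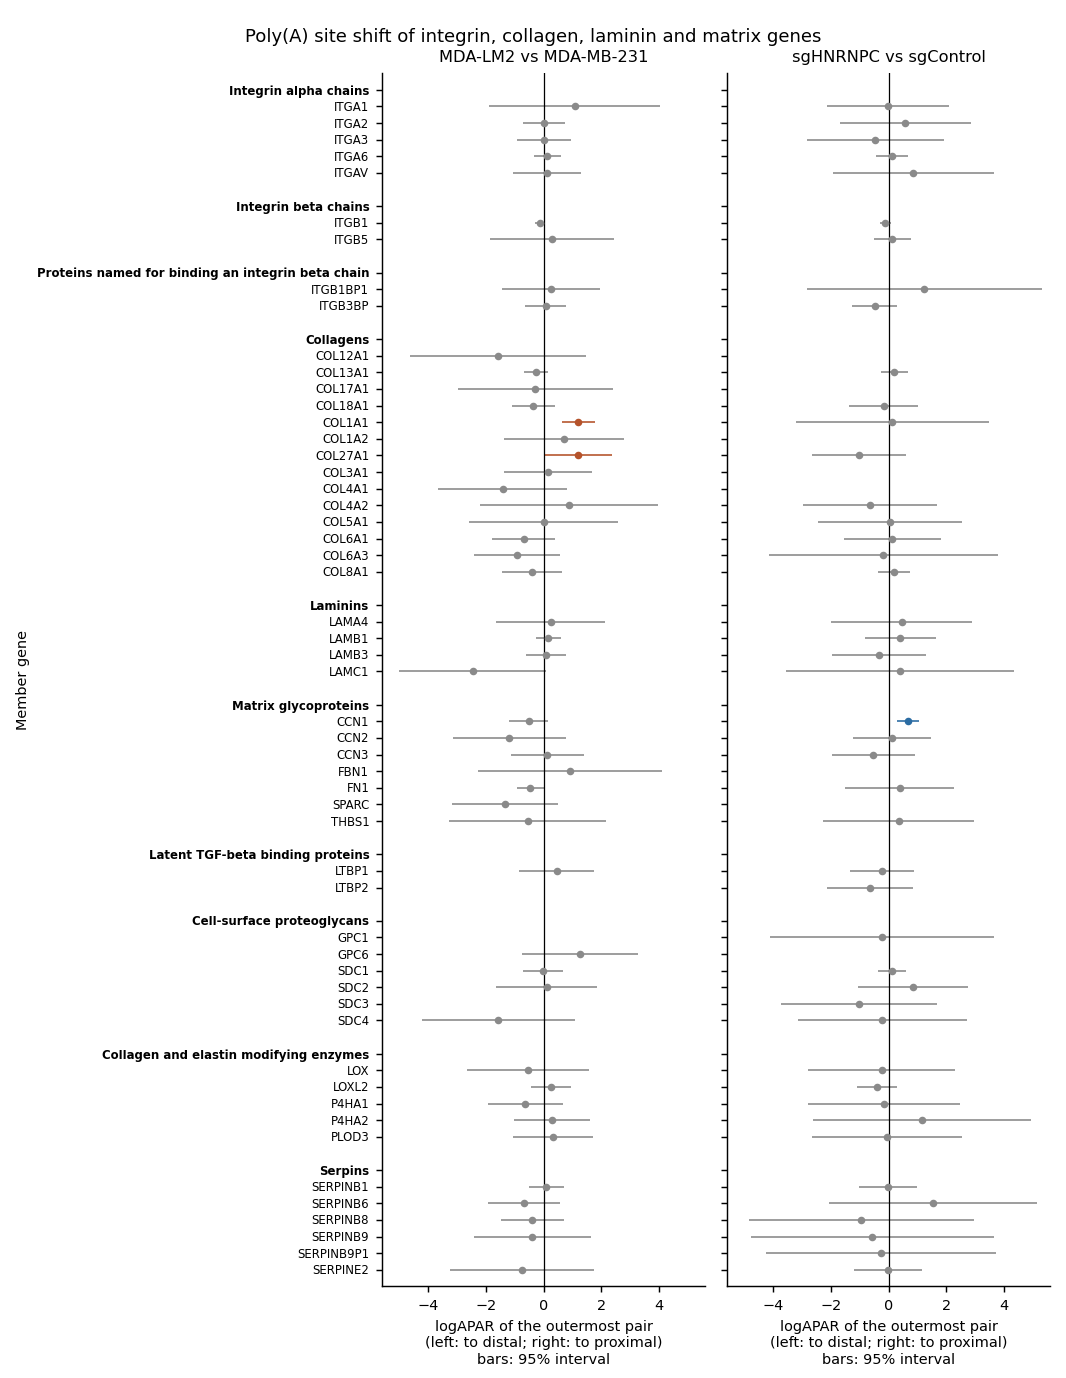
logAPAR of the outermost pair of 53 member genes (x axis) in the MDA-LM2 comparison (left panel) and the sgHNRNPC comparison (right panel), grouped by role, with points for the deposited values and bars for 95% intervals from the implied SE; coloured points have a raw p under 0.05. COL1A1 and COL27A1 are coloured on the left and CCN1 on the right, and the short bars of ITGB1 stand beside long bars for most other members.

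The integrin alpha chains, which set what an integrin binds, showed no called pair. All 5 outermost pairs had a logAPAR above 0 in MDA-LM2 cells, from 0.01 for ITGA3 (SE 0.473) to 1.08 for ITGA1. The ITGA1 value rests on a proximal end with 2.12% of the gene's precision. The lowest raw p of any pair of these genes was 0.148, so the shared sign shows no detectable shift. In sgHNRNPC cells 3 of the 5 lay above 0 and the lowest raw p was 0.377. ITGA6, which encodes the alpha chain of laminin receptors, was the most precise of them. Its logAPAR was 0.13 (SE 0.240, raw p of 0.590) in MDA-LM2 cells and 0.11 (SE 0.277, raw p of 0.697) in sgHNRNPC cells.

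ITGB1, the beta chain shared by many collagen, laminin and fibronectin receptors, was measured with the smallest SE of any member in both tables. Its outermost pair runs from ENST00000417122.6, which is not in release 44, to the 3′ UTR end of ENST00000302278.8. The logAPAR of this pair was −0.13 in MDA-LM2 cells (SE 0.0794, 95% interval −0.28 to 0.03, raw p of 0.105). It was −0.12 in sgHNRNPC cells (SE 0.0929, −0.30 to 0.06, raw p of 0.205). Neither passed the test, and both intervals include 0. The difference between the comparisons was −0.01 (95% interval −0.25 to 0.23).

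A lesser ITGB1 site carried the low p-values of this gene. The pair from position 33200963 to position 33189777 of chromosome 10, 11186 nt apart, had a logAPAR of −0.84 in MDA-LM2 cells (SE 0.388, raw p of 0.0297) and 0.49 in sgHNRNPC cells (SE 0.690, raw p of 0.481). The pair from the same position to the ENST00000302278.8 end had −0.65 in MDA-LM2 cells (raw p of 0.0380) and 0.46 in sgHNRNPC cells (raw p of 0.355). Against the more proximal ends of ENST00000417122.6 and ENST00000484088.5, the same position gave 0.52 (SE 0.315, raw p of 0.0994) and 0.45 (SE 0.377, raw p of 0.230) for MDA-LM2, neither under 0.05. The position was thus lower in sign against the sites on both sides of it. All these pairs share that position, so they are not separate observations. The difference between the comparisons was −1.33 for the first pair (95% interval −2.88 to 0.22, raw p of 0.0929, normal test on the implied SEs) and did not pass. ITGB5, a beta chain that pairs with the alpha v chain, had −0.31 (SE 0.475) in MDA-LM2 cells and 0.13 (SE 0.324) in sgHNRNPC cells for the pair that is outermost in sgHNRNPC, while its outermost pair in MDA-LM2, from another proximal end, had 0.29 (SE 1.10). ITGB3BP, a nuclear protein, had 0.07 (SE 0.360) and −0.48 (SE 0.399).

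COL1A1, the alpha 1 chain of type I collagen, held the lowest raw p of all members. Its 1 listed pair lies at positions 48262589 and 48261462 of chromosome 17, 1127 nt apart, and the gene lies at chr17:50184101-50201632 of GRCh38 on the minus strand. In MDA-LM2 cells the logAPAR was 1.20 (SE 0.286, 95% interval 0.64 to 1.77), a shift to the proximal site with a raw p of 2.58e-05 and an adjusted p of 0.0634. In sgHNRNPC cells the same pair had 0.13 with an SE of 1.71 and raw p of 0.940, an interval from −3.21 to 3.47 that includes the MDA-LM2 value. The difference between the comparisons was 1.08 (95% interval −2.31 to 4.47), so none was detectable for COL1A1 at this precision.

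COL27A1, a fibrillar collagen of cartilage, had 1 pair of ends 963 nt apart on GRCh38. It was shifted to the proximal end in MDA-LM2 cells (1.20, SE 0.598, raw p of 0.0444) and had −1.05 (SE 0.832, raw p of 0.209) in sgHNRNPC cells. The difference of 2.25 (95% interval 0.24 to 4.26) had a raw p of 0.0282 and an adjusted p of 1.0.

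Of the other collagens none had a pair at raw p under 0.05. In MDA-LM2 cells 9 of the 14 collagens had an outermost logAPAR below 0, with a median of −0.28 and a range from −1.57 for COL12A1 to 1.20 for COL1A1. In sgHNRNPC cells 4 of 9 lay below 0, with a median of 0.05. COL13A1, a transmembrane collagen, was the most precise, with −0.27 (SE 0.210, raw p of 0.194) in MDA-LM2 cells and 0.20 (SE 0.240, raw p of 0.410) in sgHNRNPC cells. COL8A1, a short-chain collagen of vessel walls, had −0.06 (SE 0.297) and 0.18 (SE 0.288) for the pair that is outermost in sgHNRNPC, and −0.40 (SE 0.533) for its own outermost pair in MDA-LM2. COL12A1, COL17A1, COL1A2, COL3A1 and COL4A1 were listed only in the MDA-LM2 table, as were FBN1, GPC6 and SPARC. Of these 8 genes, none had a pair at raw p under 0.05. Only GPC1, LTBP2, SDC3 and SERPINB9P1 were listed in the sgHNRNPC table alone.

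**Figure D2:**
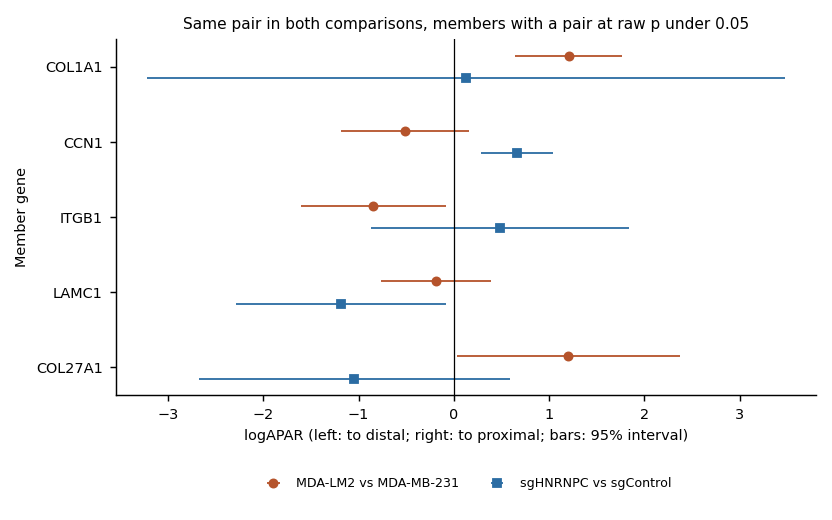
logAPAR (x axis) of the pair with the lowest raw p of each of 5 member genes that had a pair at raw p under 0.05, with the same pair in both comparisons (circles, MDA-LM2; squares, sgHNRNPC) and bars for 95% intervals from the implied SE. The 2 intervals of CCN1 do not overlap, and the sgHNRNPC interval of COL1A1 spans the whole of its MDA-LM2 interval.

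Of the laminin chains, which form the network of basement membranes, LAMC1 passed raw p under 0.05 in 1 comparison. The pair from position 183111723 of chromosome 1 to the 3′ UTR end of ENST00000258341.5 had a logAPAR of −1.19 in sgHNRNPC cells (SE 0.563, raw p of 0.0350) and −0.19 in MDA-LM2 cells (SE 0.294, raw p of 0.521). The difference was 1.00 (95% interval −0.25 to 2.24, raw p of 0.116). The outermost LAMC1 pair, from the end of ENST00000466964.1 to the same distal end, had −2.45 (SE 1.30, raw p of 0.0598) and 0.40 (SE 2.01, raw p of 0.844), and rests on a proximal end with under 1% of the gene's precision. LAMB1 had 0.17 (SE 0.223) in MDA-LM2 cells and 0.40 (SE 0.629) in sgHNRNPC cells. LAMB3, a chain of laminin-332, had 0.10 (SE 0.353) in MDA-LM2 cells, while after HNRNPC knockdown it had −0.34 (SE 0.829). None of these laminin pairs was called.

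Among the matrix glycoproteins, CCN1 was called in sgHNRNPC cells and had the opposite sign in MDA-LM2 cells. CCN1 is a secreted, integrin-binding protein. Its 1 pair joins position 86049221 of chromosome 1 to the 3′ UTR end of ENST00000451137.7. In sgHNRNPC cells the logAPAR was 0.66 (SE 0.192, 95% interval 0.29 to 1.04), with a raw p of 0.000558 and an adjusted p of 0.379. In MDA-LM2 cells it was −0.51 (SE 0.344, −1.19 to 0.16, raw p of 0.138). The MDA-LM2 value minus the sgHNRNPC value was −1.17 (95% interval −1.95 to −0.40), with a raw p of 0.00290 and an adjusted p of 1.0. CCN1 was the only 1 of 43 members in both tables with a difference at raw p under 0.01 (2.33%), against 1.10% of the 5661 genes so tested. The adjusted p in sgHNRNPC cells depended on the scale of the test: with each z-score divided by the spread of all z-scores of the table, 0.705, an alternative chosen after the data were seen, it was 0.000691. That division lowers every p-value of the table, and the share of all genes called rose from 1.62% to 6.04%. It is therefore no separate support for a CCN1 shift.

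FN1, which encodes fibronectin, had a logAPAR of −0.45 in MDA-LM2 cells (SE 0.240, raw p of 0.0593) and 0.37 in sgHNRNPC cells (SE 0.959, raw p of 0.697). Its distal site is the retained-intron end shown above. CCN2 had −1.20 (SE 0.999) and 0.11 (SE 0.685), and CCN3 had 0.13 (SE 0.649) and −0.53 (SE 0.733). For THBS1 the pair that is outermost in sgHNRNPC had 0.48 (SE 0.904) in MDA-LM2 and 0.34 (SE 1.34) in sgHNRNPC, while its outermost pair in MDA-LM2, from another proximal end, had −0.55 (SE 1.39). SPARC, a collagen-binding protein listed for MDA-LM2 alone, had −1.34 (SE 0.941, raw p of 0.155). LTBP1, which holds latent TGF-beta in the matrix, had 0.45 (SE 0.657) and −0.23 (SE 0.560), for ends 52100 nt apart on GRCh38.

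The proteoglycans and enzymes had no called pair. By outermost pair 4 of 6 serpins lay below 0 in MDA-LM2 and 6 of 7 with HNRNPC knocked down. SERPINB1, an inhibitor of neutrophil proteases, had 0.10 (SE 0.314) and −0.02 (SE 0.513). SDC1, a heparan sulfate proteoglycan of the cell surface, had −0.02 (SE 0.348) and 0.10 (SE 0.250). GPC6, a glypican listed for MDA-LM2 alone, had the lowest raw p of the proteoglycans, 0.0505, for a pair with a logAPAR of 2.28 (SE 1.16). LOXL2, which cross-links collagen, had 0.26 (SE 0.354) and −0.42 (SE 0.356). The 5 collagen and elastin modifying enzymes (LOX, LOXL2, P4HA1, P4HA2 and PLOD3) had no raw p under 0.1 in either table, the lowest being 0.109 in sgHNRNPC cells.

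The same outermost pair was listed in both tables for 30 members. The logAPAR had the same sign in both comparisons for 12 of them (40%), and for 51.9% of 4224 genes. Of the 12, 6 were below 0 in both and 6 above 0 in both. COL1A1 was above 0 in both, ITGB1 below 0 in both, and CCN1, FN1, COL13A1, COL27A1 and LAMC1 had opposite signs.

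**Figure D3:**
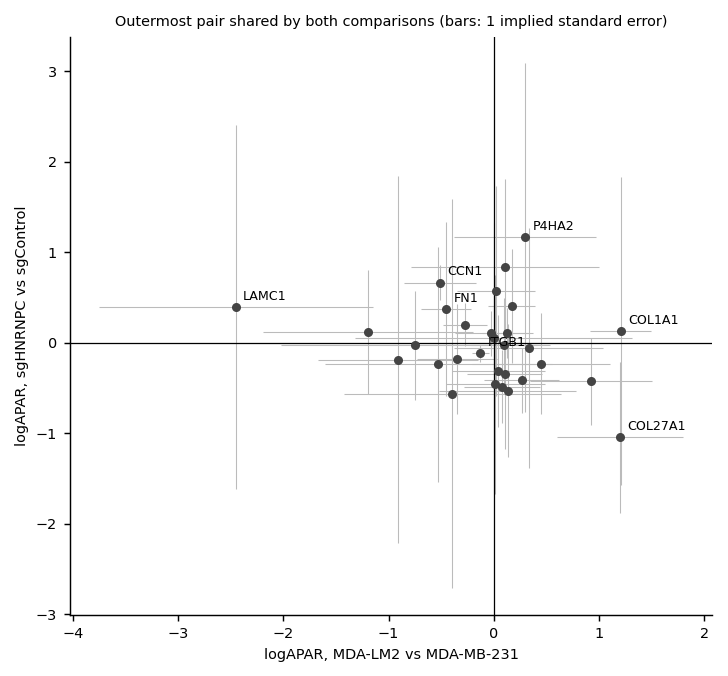
logAPAR of the outermost pair in the MDA-LM2 comparison (x axis) against that of the same pair in the sgHNRNPC comparison (y axis) for the 30 members that have it in both tables, with bars of 1 implied SE. The points lie in all quadrants, 12 of the 30 in the lower left or upper right.

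The squared SEs of the pairs of a gene were sums of 1 term per site. Over the 1835 genes of 4 or more sites in the MDA-LM2 table the median misfit of such sums was 0.00726%, and over the 2053 genes for sgHNRNPC it was 0.0112%. This is the form of counting error in a multinomial model, in which a site with more reads has a smaller term. The inverse terms gave each site's share of its gene's precision, which is a guide to its share of the counted reads, not a read count. They also allowed a test of each site against all other sites of its gene, chosen after the data were seen.

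ITGB1 rested on 2 sites in both comparisons. The ENST00000302278.8 end held 60.7% of the precision for MDA-LM2 and 60.8% for sgHNRNPC, and the ENST00000417122.6 end held 32.6% and 36.7%. Position 33200963, which the pairs at raw p under 0.05 share, held 1.40% and 0.791%.

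LAMC1 differed in its leading site between the tables. The end of ENST00000478064.1 held 57.5% of its precision for MDA-LM2 and 26.4% for sgHNRNPC, where the ENST00000258341.5 end held 38.9%. THBS1, a secreted adhesion glycoprotein, rested mainly on position 39889967 of chromosome 15 in both, with 48.3% and 73.9%.

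The site with the largest share was the most distal one in 9 of 24 members (37.5%) for MDA-LM2, and in 35.0% of 3453 genes of 3 or more sites. For sgHNRNPC it was so in 11 of 21 members (52.4%), and in 43.3% of 3732 such genes. Of the 16 members with such terms in both, 11 had the same leading site. By the test of each site, 1 of 24 members had a site at raw p under 0.01 in MDA-LM2 cells, against 3.79% of all genes of 3 or more sites. In sgHNRNPC cells 0 of 21 did, against 2.65% of such genes.

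**Figure D4:**
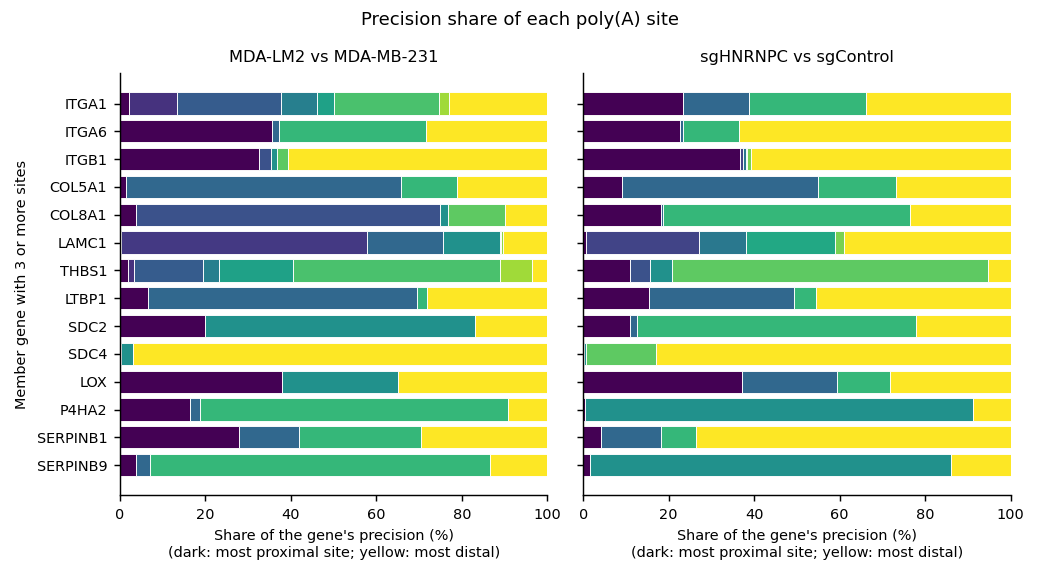
Share of a gene's precision (x axis, percent) held by each poly(A) site of 14 members with 3 or more sites in both tables, with segments ordered from the most proximal site (dark) to the most distal (yellow). The yellow segment of ITGB1 is 60.7% on the left and 60.8% on the right, and LAMC1 changes its leading segment.

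Members differed in how precisely the same pair was measured in the 2 comparisons. The squared SE in the sgHNRNPC table was a median of 1.69 times that in the MDA-LM2 table over the 30 members, and 1.53 times over 4224 genes. For COL1A1 the ratio was 35.5, above that of FN1 with 16.0, ITGA2 with 9.80, P4HA2 with 8.11 and LAMB1 with 7.98. At the other end were SERPINE2 with 0.222, CCN1 with 0.312, CCN2 with 0.470 and SDC1 with 0.517. The tables do not say how far this ratio follows the level of the mRNA.

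**Figure D5:**
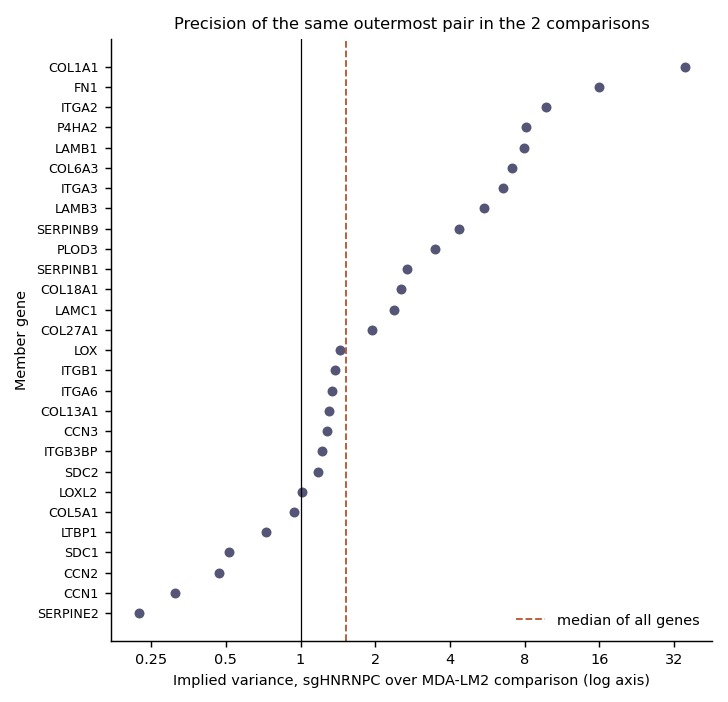
Ratio of the squared implied SE of the same outermost pair, sgHNRNPC comparison over MDA-LM2 comparison (x axis, log scale), for 28 members that have it in both tables; the solid line marks 1 and the dashed line the median of all genes, 1.53. COL1A1 lies farthest to the right at 35.5 and SERPINE2 farthest to the left at 0.222.

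Further genes of the same biology came from 2 lists that held no member. Of 32 other matrix genes, 9 were listed for MDA-LM2 with 0 called, against 2.72% of all genes, and 1 at raw p under 0.05, against 11.0%. For sgHNRNPC 7 were listed with 1 called, against 1.62% of all genes. That gene was PXDN, a peroxidase that cross-links type IV collagen, with a shift to distal (−0.42, SE 0.14, raw p of 0.00257, adjusted p of 0.920). Of 38 genes of integrin adhesions, 20 were in the MDA-LM2 table with 2 called, against 2.72% of all genes, and 5 at raw p under 0.05, against 11.0% of all genes. These were FERMT2, an activator of integrins, with a shift to distal (−2.15, SE 0.834, raw p of 0.00988, adjusted p of 0.974) and TNS4, a tensin of focal adhesions, with a shift to proximal (2.13, SE 0.695, raw p of 0.00222, adjusted p of 0.779). Genes of integrin adhesions in the sgHNRNPC comparison numbered 23, with 0 called, against 1.62% of all genes, and 1 had a raw p under 0.05, against 4.51%. By outermost pair the median of the integrin adhesion genes was −0.0024 for MDA-LM2 and 0.02 for sgHNRNPC, and that of the other matrix genes was 0.44 and −0.07.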

How the data were processed

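Poly(A) site usage was measured by QuantSeq 3′-end sequencing in 8 samples, 2 in each of 4 groups. Per the labels and the study's methods, the authors counted reads on annotated 3′ ends with Salmon 0.14.1 and compared the sites pair by pair with APAlog, which runs a multinomial logistic regression. The deposited tables give a logAPAR, a p-value and a q-value per pair. These are the results of the authors' own comparisons and the only values in the tables, so they are given as deposited and no count test was run. The deposited q-value equalled a recomputed Benjamini-Hochberg adjustment.

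SEs were implied as the size of the logAPAR over the normal quantile of its p-value. Pairs listed in both tables were compared by a two-sided normal test, adjusted over all such pairs. The members and lists were chosen with earlier results of these data known. Named genes are members with a pair at raw p under 0.01 and the 10 with the smallest SE of the outermost pair per table; further names were chosen once values had been seen, and 2 members are counted but not reported here. Site positions did not match GRCh38, the build in the labels (11 of 68 and 6 of 48 member pairs of positions had the proximal site within 5000 nt of the gene there) and were not converted. Transcript ends were placed by identifier and version in GENCODE release 44. Scripts (Python 3.11.15 with scipy 1.17.1, pandas 2.3.3 and numpy 2.4.6) were tested on simulated data.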

Additional observations from a re-analysis of the deposited data

How the results depend on the processing

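Leaving out a replicate was not run and depth is unknown, since each pair has 1 value per table. No paired analysis was possible because the deposited columns carry no replicate. The implied SEs have the form of counting error, and no separate term for the spread between replicates was seen in them.

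The count of members called in MDA-LM2 cells, 2 of 51 at raw p under 0.01 beside 2.72% of all genes, was 4 at raw p under 0.05 beside 11.0%, 1 under 0.001 beside 0.642% and 0 at an adjusted p under 0.05 beside 0.122%. By outermost pair only it was 1 of 51, beside 1.02% of all genes. It was 1 of 19 among pairs of 2 genomic positions, beside 2.08% of all genes with such a pair, and 0 of 22 among pairs of 2 transcript ends, beside 1.53%. Without the genes of 1 family it was 1 of 45, beside 2.71%. The count in sgHNRNPC cells, 1 of 47 beside 1.62% of all genes, was 2 at raw p under 0.05 beside 4.51% and 0 at an adjusted p under 0.05 beside 0.338%. It was 0 of 17 among pairs of 2 genomic positions, beside 0.813% of all genes with such a pair, and 0 of 20 among pairs of 2 transcript ends, beside 0.826%. The share of members to distal in sgHNRNPC cells, 55.3%, was 40% among the 10 with an SE under 0.5. Each site tested against the other sites of its gene, an alternative added after the data were seen, called 1 of 24 members for MDA-LM2 and 0 of 21 for sgHNRNPC. Beside these stood 3.79% and 2.65% of all genes of 3 or more sites.

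Another added alternative divided each z-score by the spread of all z-scores, 1.03 for MDA-LM2 and 0.705 for sgHNRNPC. It left 1 member in MDA-LM2 cells (COL1A1) and gave 2 in sgHNRNPC cells (CCN1 and LAMC1), beside 2.37% and 6.04% of all genes. CCN1 then had an adjusted p of 0.000691, and its difference between the comparisons an adjusted p of 0.677. The cause of these changes was not tested. Of 52 alternatives, 35 left their result within the limits set for no change. No difference between the comparisons passed an adjusted p under 0.05 in any member under any alternative run.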

Other observations

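Of the 98 HNRNPC-bound sequences that the study placed in its reporter library, 1 matched a member gene exactly. It lies in COL13A1, at chr10:69936712-69936807 of GRCh38 on the gene's strand, and covers the exon at 69936756 to 69936782. The study describes the binding sites of its library as lying in 3′ UTRs. Whether this exon is coding or part of a 3′ UTR was not determined. The 30 bases around the exon's start, chr10:69936731-69936760, are shown with the first exon bases in capitals.
COL13A1, plus strand: gcaccttgctttattccaaatgcagGGGCT
The sequence ends 21926 nt before the placed end of ENST00000520267.5, the proximal site of the COL13A1 pair, whose logAPAR passed no test in either comparison. The library is a selection of bound sequences, so that the other members held no match says nothing about HNRNPC binding to them.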
